A study of Homo sapiens with 34 samples.

Results

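The abundance of mRNAs late in an s4U chase was compared with their abundance early in it, in the CCND1 knockdown line of a study of RNA turnover and cell size. The 10 libraries were chosen by their titles, as every knockdown library taken at 720 or 1440 min of chase (4 late libraries) or at 0, 10, 20 or 45 min (6 early libraries), of 34 libraries in all. The late group held replicates 1 and 2 at each of its times. The early group held replicates 1 and 2 at 0 and 45 min and replicate 2 alone at 10 and 20 min. Both groups came from hTERT-RPE1 cells, a human retinal pigment epithelial line immortalised with telomerase, in which doxycycline switched on a short hairpin RNA directed at the 3′ UTR of CCND1, the gene of cyclin D1. The line was polyclonal by the study's own account. All cells had been in 0.5 µg/mL doxycycline for 4 days when the pulse of 10 µM s4U began, and had been labelled for 24 h with new medium every 3 h before they were washed and chased in medium with 1 mM uridine. No library without doxycycline or with another hairpin entered, so the comparison is between times and not between knockdown and unmanipulated cells. The overexpression line, used below for 1 comparison, carried in addition a doxycycline-induced CCND1 allele that the hairpin spares.

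In SLAM-seq, the thiolated uridine s4U is built into new RNA and read later as T>C mismatches, so a chase follows old RNA away. The total reads of a gene, used here, count old and new RNA together. They move only where synthesis and decay are out of balance, and a culture in steady state would keep them level through the chase. Fresh medium brings growth factors, nutrients and lipids to adherent cells, and cultured fibroblasts and epithelial cells are known to respond to it within minutes through immediate early genes and over hours through cell cycle, lipid and cytoskeletal genes. Here new medium was not confined to the chase, since it had been given every 3 h of the pulse, and the chase began with 1 more wash and change. The study's methods mention no later change, so the late cells had been longer in 1 medium, longer in doxycycline, longer in culture and longer out of s4U than the early cells. These differences cannot be told apart from chase time.

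The libraries held 26354507 to 44480703 reads in 3′ UTR intervals, or 67.8 to 71.6% of mapped reads. The T>C rate was 0.285% and 0.265% in the replicates at 720 min, 0.106% and 0.101% at 1440 min, and 0.775 to 0.891% in the early libraries, against 0.0194% and 0.0296% in unlabelled libraries, and so every late library was below every early one, with 1440 min below 720 min. Pairs of late libraries correlated at r = 0.941 to 0.957 over log2 CPM of the genes tested, pairs of early libraries at 0.937 to 0.966, and late with early libraries at 0.926 to 0.951. CCND1 itself was at 152, 159.6, 113 and 108 CPM (3′ UTR reads of a gene scaled to a common library size, here and below in the order 720 min replicates 1 and 2, 1440 min replicates 1 and 2) in the late libraries, and at a lowest, median and highest of 151, 171 and 200 CPM in the 6 early ones (log2 difference -0.36 ± 0.12, adjusted p = 0.0591). It was lower at 1440 min taken alone (-0.64, adjusted p = 0.00225). Its 3′ UTR reads in the overexpression line ran from 41.6 to 82.0 CPM late and from 47.0 to 67.2 CPM early, below every knockdown library. The hairpin is directed at the 3′ UTR and spares the added allele, so these reads need not count that allele's transcripts. Total CCND1 mRNA in the overexpression line cannot be read from them. Without uninduced cells the depth of the knockdown cannot be read from these libraries. The marker check found KRT8 and KRT18, VIM and FN1, and the pigment epithelial transcription factor MITF at up to 86.5 CPM late and 109 CPM early, while RPE65 stayed at 0 to 0.117 CPM late and 0 to 0.323 CPM early and TYR at 0 in every library. Of 12 pigment epithelial markers 3 reached 1 CPM in any library, so the tissue of origin named in the labels shows in few of its defining markers. Of 6 epithelial markers 3 reached 1 CPM, while CDH1 was at 0 CPM late and at most 0.031 CPM early. EPCAM reached at most 0.42 CPM late and 0.084 CPM early, and CLDN19 at most 0.73 and 0.046 CPM. None of 8 blood cell markers reached 1 CPM in any library. Of 7 neural markers 3 reached 1 CPM, with MAP2 at 5.71 to 14.2 CPM late and 4.78 to 14.6 CPM early. Of 6 endothelial markers 1 did, KDR, at up to 2.53 CPM late and 2.29 CPM early.

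Late over early, 545 of 11875 genes tested were called higher (4.59%) and 503 were called lower (4.24%) by edgeR's quasi-likelihood test with Benjamini-Hochberg adjustment at 0.05. Most of these differences were small, with a median absolute log2 difference of 0.59 among the 1048 called genes. Of the called genes, 67 were higher by a log2 difference of 1 or more and 74 were lower by as much, and 674 had no late library inside the range of the early ones, as had 985 of all genes tested. All 545 higher genes and 501 of the 503 lower genes had the same sign when replicates 1 and replicates 2 were taken apart. The calls came from these same libraries, so the selection favoured this agreement, and it is no independent replication. The reads measure shares of each library, so a gene that is lower may be lower or merely outgrown, and in bulk RNA fewer cells of one state and less RNA per cell cannot be told apart. Without composition scaling the split became 737 higher and 389 lower. Without replicate 2 at 1440 min the counts fell to 346 higher and 310 lower, and without both 45 min libraries they were 353 and 350.

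The highest difference of all genes tested was that of PLAT, tissue plasminogen activator, a secreted protease that turns plasminogen into plasmin (chr8:42175233-42175992, minus strand, hg38). It stood at 389, 545, 366 and 673 CPM in the late libraries, against a lowest, median and highest of 15.9, 25.6 and 29.4 CPM in the early libraries (log2 difference 4.32 ± 0.17, adjusted p = 5.08e-15), a 20.0-fold difference. Each late library lay above every early library by an order of magnitude. ESM1, which encodes the secreted proteoglycan endocan (chr5:54977864-54979331, minus strand), was next among the genes picked by the rule given below. It had 140.1, 194, 56.8 and 124 CPM in the late libraries, and 15.9, 19.8 and 22.9 CPM as the lowest, median and highest of the early ones (log2 difference 2.72 ± 0.21, adjusted p = 4.06e-09). Its lowest late value was replicate 1 at 1440 min, and that library was still above every early one.

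The other genes with the highest differences are given by size among the called genes that passed the rule at the end of this paragraph. Called genes whose groups overlapped were left out by that rule, whatever their size. The inflammatory cytokine IL1B had 32.9, 64.1, 33.9 and 41.2 CPM late and 8.51, 10.4 and 14.1 CPM early as lowest, median and highest (log2 difference 2.02 ± 0.19, adjusted p = 1.54e-07), with no overlap. The neutrophil chemokine CXCL8 had 287, 446, 110.3 and 173 CPM late and 37.7, 63 and 84.4 CPM early (log2 difference 2.01 ± 0.25, adjusted p = 7.48e-06). Its late values fell into a high pair at 720 min and a lower pair at 1440 min, and the early libraries at 0 min were its lowest. TGFA, a ligand of the EGF receptor, showed the same split, with 47.4, 41.4, 24.1 and 21.1 CPM late and 11.1, 13.8 and 15.6 CPM early (log2 difference 1.28 ± 0.20, adjusted p = 0.000133). STC1, a secreted glycoprotein hormone, was at 1503, 1580, 1255 and 1510 CPM late and 535, 631 and 677 CPM early (log2 difference 1.24 ± 0.09, adjusted p = 2.52e-09). The late and early libraries of STC1 formed 2 tight and separate groups. The same was true of TGM2, transglutaminase 2, which crosslinks matrix proteins (928, 825, 1286 and 936 CPM late, 312, 344 and 392 CPM early, log2 difference 1.50 ± 0.11, adjusted p = 2.02e-09), and of TMEM158, a membrane protein known as a target of Ras signalling (1293, 1373, 1278 and 1426 CPM late, 486, 516 and 576 CPM early, log2 difference 1.36 ± 0.08, adjusted p = 6.72e-11). The collagen receptor subunit ITGA2 was at 62.9, 66.8, 63 and 57.4 CPM late and 13, 21.3 and 23.9 CPM early (log2 difference 1.64 ± 0.15, adjusted p = 1.2e-07). Among the others of the 15 highest genes, by a rule that asked for no overlap, at least 10 CPM and the same sign in both replicates, were the scaffold protein gene MPP4 (1.52), the necroptosis effector MLKL (1.33), the MAP kinase phosphatase DUSP4 (1.33), the anthrax toxin receptor ANTXR2 (1.23) and the protease gene FAM111B (1.21).

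**Figure D1:**
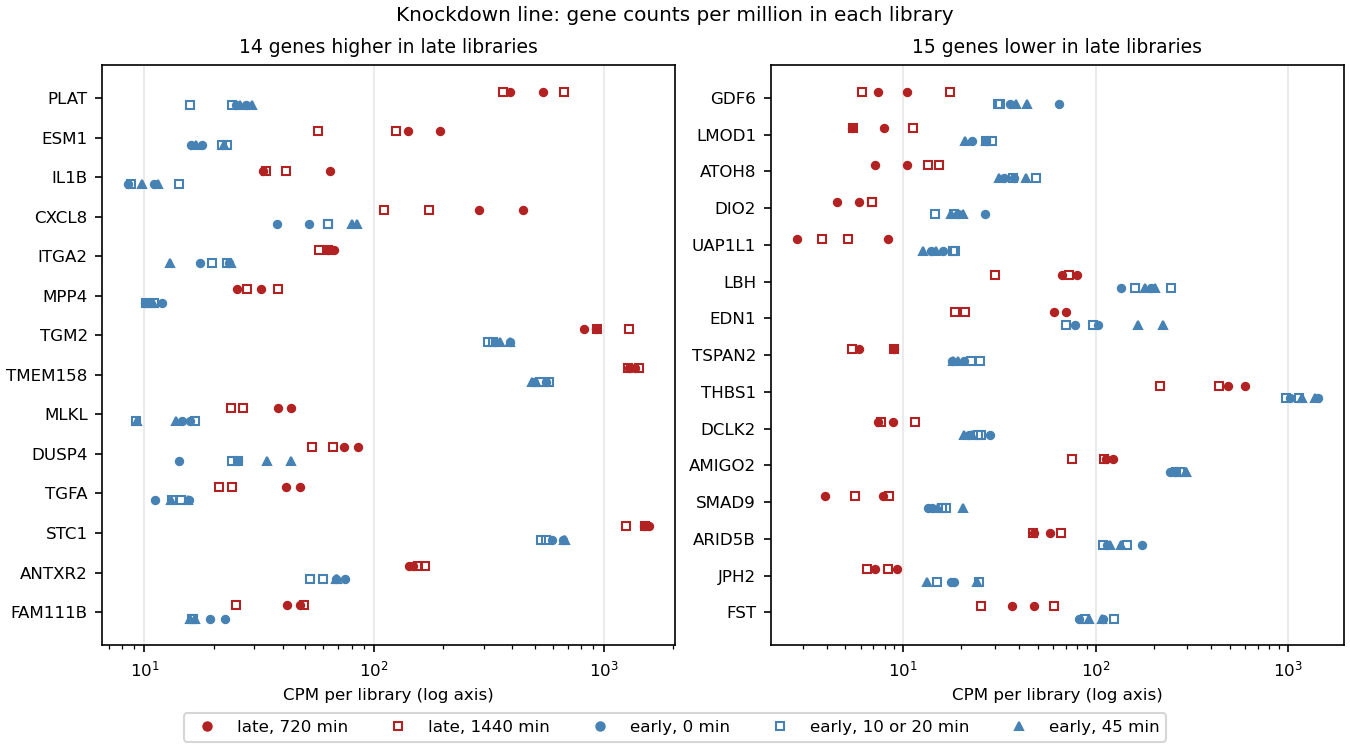
CPM (log axis) in each of the 10 knockdown libraries for 14 of the 15 genes with the highest late over early differences (left) and the 15 with the lowest (right). Red marks are late libraries and blue marks early ones, with PLAT at 366 to 673 CPM late and 15.9 to 29.4 CPM early. No gene drawn here overlaps between the groups, which the choice of genes required.

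The 15 genes with the lowest differences were likewise chosen by size under the same rule. Called genes whose groups overlapped were left out, among them EGR1, which is described below and had a larger difference. GDF6, a BMP ligand (chr8:96142330-96144654, minus strand), had 10.4, 7.41, 17.5 and 6.08 CPM late and 31, 37.2 and 64.5 CPM early (log2 difference -1.98 ± 0.25, adjusted p = 1.05e-05). SMAD9, which carries BMP signals into the nucleus, had 7.83, 3.9, 5.61 and 8.47 CPM late and 13.4, 15.5 and 20.5 CPM early (log2 difference -1.31 ± 0.23, adjusted p = 0.000743). FST, the activin antagonist follistatin, had 37, 48, 25.3 and 60.6 CPM late and 81.5, 99.9 and 125 CPM early (log2 difference -1.24 ± 0.18, adjusted p = 5.65e-05). ATOH8, a basic helix-loop-helix transcription factor, was at 7.13, 10.5, 15.4 and 13.5 CPM late and 31.4, 37.4 and 48.9 CPM early (log2 difference -1.73 ± 0.19, adjusted p = 2.23e-06), and its 720 min libraries were below its 1440 min libraries. THBS1, thrombospondin 1, a matrix glycoprotein that activates latent TGF-beta (chr15:39595370-39599466, plus strand), was at 598, 487, 438 and 215 CPM late and 979, 1162 and 1428 CPM early (log2 difference -1.45 ± 0.18, adjusted p = 7.35e-06). Its lowest library was replicate 2 at 1440 min, which was also the lowest late library of LBH, a transcriptional cofactor (66.8, 79.8, 72.3 and 30.1 CPM late, 135, 188 and 248 CPM early, log2 difference -1.59 ± 0.20, adjusted p = 7.72e-06). EDN1, the vasoconstrictor peptide endothelin 1, was at 60.5, 70.3, 18.5 and 20.9 CPM late and 70.4, 99.8 and 224 CPM early (log2 difference -1.53 ± 0.33, adjusted p = 0.00405). The early values of EDN1 spread widely because both 45 min libraries were high, at 224 and 165 CPM, and its nearest late and early libraries were almost level, at 70.3 and 70.4 CPM. The others were the actin nucleator gene LMOD1 (-1.76), the deiodinase DIO2, which activates thyroid hormone (-1.68), UAP1L1 (-1.64), the tetraspanin TSPAN2 (-1.50), the kinase gene DCLK2 (-1.43), the adhesion protein gene AMIGO2 (-1.37), ARID5B, a DNA-binding chromatin regulator (-1.28), and JPH2, which holds membranes of the cell surface and the endoplasmic reticulum together (-1.27). All 30 of these genes kept their call when any 1 library was left out.

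Gene lists for pathways of this cell type and treatment gave the pattern by role. They are described by how many tested members were called and by their median, beside a median of -0.01 over all genes tested, with 4.59% of all genes called higher and 4.24% lower.

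**Figure D2:**
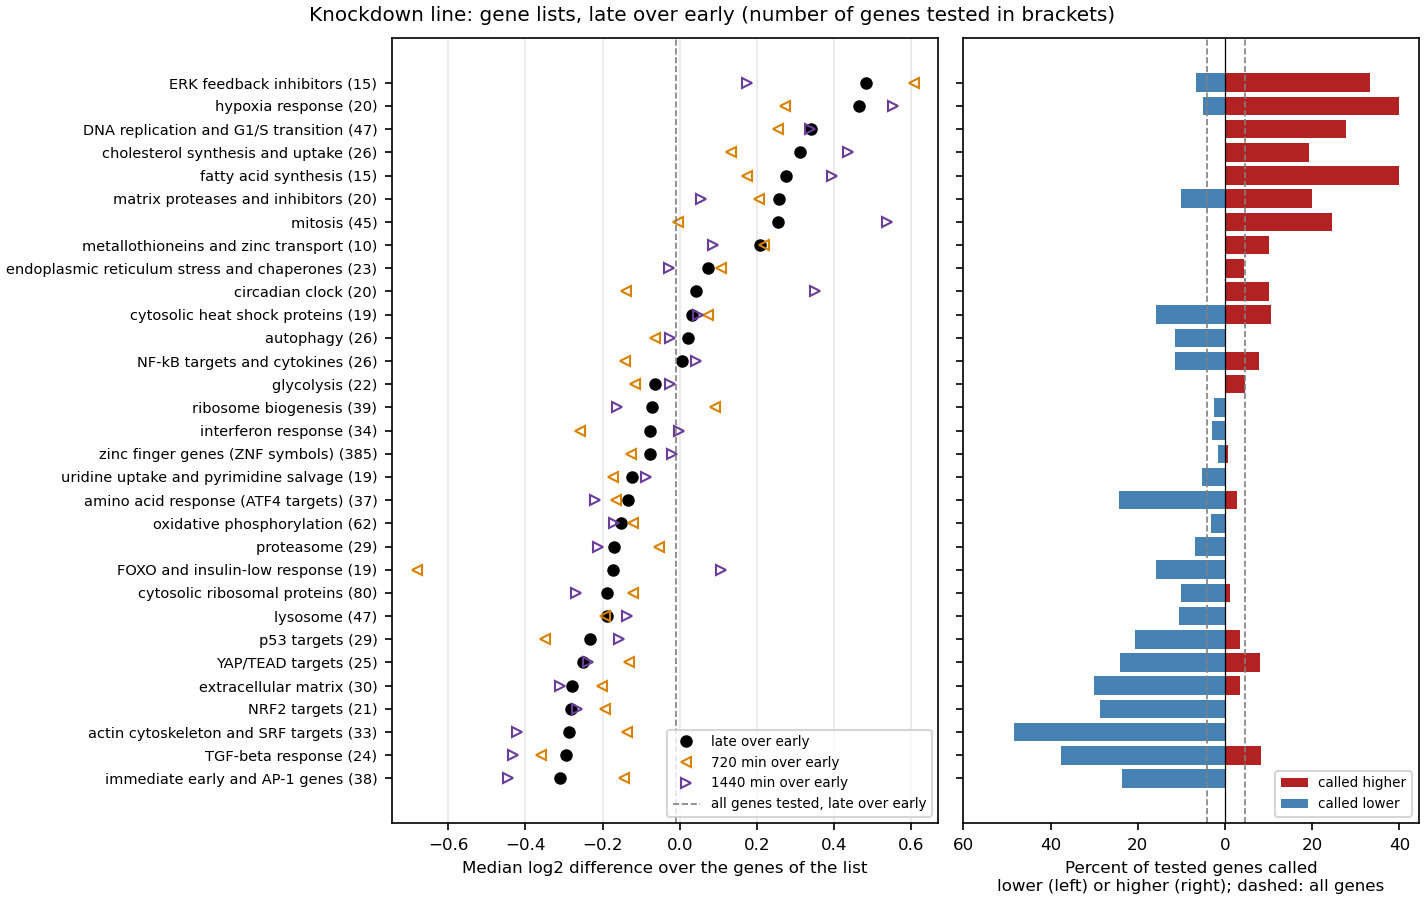
Gene lists, with the number of genes tested in brackets. Left, the median log2 difference of each list for late over early (black), 720 min over early (orange) and 1440 min over early (purple). Right, the percent of each list called lower (blue, to the left) and higher (red, to the right), with dashed lines at the shares of all genes tested. The list labelled ERK feedback inhibitors, the hypoxia list and the DNA replication list lie highest, and immediate early, TGF-beta and actin genes lowest.

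The DNA replication genes that were called were all higher. Of 47 tested, 13 were called higher and none lower, 42 were above 0, and the median was 0.34. CDC6, which loads the replicative helicase, had 55.3, 64.3, 35.8 and 41.4 CPM late and 23.9, 25.4 and 36.8 CPM early (log2 difference 0.81 ± 0.16, adjusted p = 0.00252), with the 720 min libraries highest and the 1440 min libraries close to the early 10 and 20 min ones. CCNE2, a cyclin of the G1/S transition, had 21.3, 16.2, 14.7 and 11.7 CPM late and 7.42, 9.02 and 11 CPM early (log2 difference 0.81 ± 0.21, adjusted p = 0.0147). RRM2, the small subunit of ribonucleotide reductase, had 330.3, 329.7, 359 and 432 CPM late and 199, 222 and 237 CPM early (log2 difference 0.71 ± 0.10, adjusted p = 2.24e-05), with no overlap. FEN1, which trims Okazaki fragments, was nearly constant within each group, at 194, 192, 192 and 202 CPM late and 113, 123 and 146 CPM early (log2 difference 0.65 ± 0.10, adjusted p = 0.000101). The helicase subunits MCM6 (0.61) and MCM4 (0.38), the helicase activators CDC45 (0.63) and MCM10 (0.69), the sliding clamp PCNA (0.52), the polymerase alpha subunit POLA2 (0.56), GINS3 (0.55), the origin subunit ORC6 (0.51) and the ubiquitin ligase adaptor DTL (0.51) were also called higher. Without replicate 1 at 720 min the count was 8, and CCNE2 was then not called (adjusted p = 0.0871). The count was 9 without both 45 min libraries and 3 with the 0 min libraries alone as early.

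The called mitotic genes were all higher as well, and the median of their list was higher at 1440 min than at 720 min. Of 45 tested, 11 were called higher and none lower, with a median of 0.25 over both late times, of -0.0039 at 720 min and of 0.54 at 1440 min. MKI67, the proliferation antigen that coats mitotic chromosomes, had 132, 142, 258 and 269 CPM late and 121, 141 and 152 CPM early (log2 difference 0.51 ± 0.15, adjusted p = 0.0397). Its 720 min libraries lay inside the early range and its 1440 min libraries lay well above every other. Set against each other, 1440 over 720 min, 44 of the 45 mitotic genes were above 0 and 5 were called higher, namely MKI67, CDC25B (1.08), CENPF (1.03), SPC24 (0.92) and PTTG1 (0.76), beside 0.312% of all genes. MKI67 had 0.94 ± 0.15 in that test (adjusted p = 0.00106), while TOP2A (adjusted p = 0.0762), BUB1B (0.0589), DLGAP5 (0.115), NUF2 (0.332) and SPC25 (0.651) were not called. TOP2A, the mitotic topoisomerase, had 226, 188, 326 and 290.5 CPM late and 146, 167 and 188 CPM early (log2 difference 0.63 ± 0.12, adjusted p = 0.00192). BUB1B, a checkpoint kinase, had 36.5, 34.1, 66.4 and 54.8 CPM late and 27.3, 30.6 and 33.1 CPM early (log2 difference 0.65 ± 0.16, adjusted p = 0.0105). The kinetochore genes NUF2 (0.71) and SPC25 (0.71), the spindle genes DLGAP5 (0.57) and AURKA (0.38), the checkpoint gene MAD2L1 (0.47), the mitotic kinase CDK1 (0.49), the passenger complex gene CDCA8 (0.49) and the cytokinesis gene ECT2 (0.50) completed the 11. The count late over early was 5 without replicate 1 at 1440 min, 3 without replicate 2 at 1440 min, 7 without replicate 2 at 45 min, 6 without both 45 min libraries, and 0 with the 0 min libraries alone as early. The call of MKI67 was lost without any 1 of 8 libraries, that of DLGAP5 without any 1 of 3, that of BUB1B without either 1440 min library, and that of SPC25 without replicate 2 at 1440 min.

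The promoters of these 2 groups hold different known elements. The shares describe the lists and not these libraries, and a link between the elements and the late times was not tested. The median of the replication list was 0.25 at 720 min and 0.34 at 1440 min. Promoter windows of 300 bases, 250 before and 50 after the start site (RefSeq, GRCh38.p14), were searched on both strands for 9 fixed motifs, and 9828 of the 11875 tested genes matched one. The cell cycle homology region, bound by the DREAM and MuvB complexes, was written as TTTGAA and was present in 26 of 39 mitotic promoters (66.7%), in 1 of 40 replication promoters (2.50%), in 9.66% of the promoters of all genes tested and in 15.4% of 27305 promoters. The E2F element, written as TTTNNCGC, was present in 23 of 40 replication promoters (57.5%), in 4 of 39 mitotic ones (10.3%), in 10.7% of the promoters of all genes tested and in 6.90% of all 27305. Among all genes called higher, the cell cycle homology region was in 15.4% and the E2F element in 14.04%, and among all called lower in 11.4% and 7.13%. A match is a run of letters and not a bound site. In the windows printed here 5′ to 3′ on the gene's strand, capitals mark the cell cycle homology region in 4 mitotic genes and the E2F element in CDC6.
BUB1B (chr15:40161038-40161059, plus strand): ccgttaaaTTTGAAacttggcg
NUF2 (chr1:163321962-163321983, plus strand): gcggcaagTTTGAAaagtgatg
SPC25 (chr2:168890420-168890441, minus strand): gcactaggTTTGAAatcggaaa
MKI67 (chr10:128126439-128126460, minus strand): cgttttcgTTTGAAttgggcgg
CDC6 (chr17:40287878-40287901, plus strand): cattcggaTTTGGCGCgagcgcgg

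The called genes of lipid synthesis were all higher. Of 26 cholesterol synthesis and uptake genes tested, 5 were called higher and none lower, with a median of 0.31. IDI1, of the isoprenoid steps, had 50.7, 48.3, 63.2 and 48.3 CPM late and 25, 33.1 and 40.2 CPM early (log2 difference 0.68 ± 0.14, adjusted p = 0.003). SQLE (0.72), the first oxygenating enzyme of sterol synthesis, MSMO1 (0.60), which demethylates sterols, and INSIG2 (0.69), which keeps the sterol regulator SCAP in the endoplasmic reticulum, were also called. HMGCS1, which supplies the pathway, had 30.9, 21.9, 49 and 26.7 CPM late and 22.8, 24.9 and 29.5 CPM early and was not called (log2 difference 0.33 ± 0.18, adjusted p = 0.277). Of 15 fatty acid synthesis genes, 6 were called higher and none lower, and 14 were above 0. SCD, which puts the double bond into fatty acids, had 85.5, 76.5, 245 and 155 CPM late and 63, 68 and 86.5 CPM early (log2 difference 1.01 ± 0.21, adjusted p = 0.00284). Its 720 min libraries lay inside the early range and its 1440 min libraries lay far above it, with replicate 1 well above replicate 2. The elongase ELOVL6 (0.63), the acyl-CoA synthetase ACSL3 (0.79), the desaturase FADS1 (0.51), the lipogenic regulator SREBF1 (0.72) and MID1IP1, a partner of acetyl-CoA carboxylase (0.54), were called as well. Without replicate 1 at 1440 min each list had 3 calls, and without both 45 min libraries the cholesterol list had 3. With the 0 min libraries alone as early each list had 1. The calls of INSIG2 and SREBF1 were lost without any 1 of 7 libraries, that of MID1IP1 without any 1 of 6, and that of SQLE without either of 2. CCAAT, on either strand, was in 16 of 20 cholesterol gene promoters (80.0%), in 37.0% of the promoters of all genes tested and in 35.7% of all promoters. It was not particular to them, with 76.9% of mitotic promoters, 86.4% of those of endoplasmic reticulum stress genes and 16.7% of those of YAP/TEAD targets. The sterol element, written as TCACNCCAC, was in 1 of the 20 (5.0%) and in 1.11% of the promoters of all genes tested.

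Most called genes of the hypoxia response were higher. Of 20 tested, 8 were called higher and 1 lower, with a median of 0.46. PDK1, which slows the entry of pyruvate into the citric acid cycle, had 26.4, 25.1, 31.6 and 36.9 CPM late and 10.1, 13.2 and 21.6 CPM early (log2 difference 1.12 ± 0.20, adjusted p = 0.000562), and the early maximum was 1 library, replicate 1 at 45 min. P4HA1, which hydroxylates collagen, had 61.2, 56.9, 70.6 and 76.5 CPM late and 31, 33.6 and 39.5 CPM early (log2 difference 0.94 ± 0.12, adjusted p = 1.6e-05). VEGFA, the angiogenic growth factor, had 42.3, 38.7, 56.6 and 39.6 CPM late and 16.3, 25 and 28.6 CPM early (log2 difference 0.88 ± 0.16, adjusted p = 0.000639). None of these 3 overlapped between the groups. The mitophagy receptors BNIP3 (0.49) and BNIP3L (0.44), the oxygen sensor EGLN1 (0.47), the histone demethylase KDM3A (0.65) and INSIG2 were called higher, and the peptide hormone ADM was called lower (-0.53). Of 22 glycolysis genes only hexokinase 2, HK2, was called (1.11, adjusted p = 4.82e-05), and 42.4% of its reads mapped to more than 1 place. The count of higher hypoxia genes was 5 without replicate 2 at 1440 min and 3 with the 0 min libraries alone as early. The calls of KDM3A and INSIG2 were each lost without any 1 of 7 libraries.

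The list labelled ERK feedback inhibitors had more calls higher than lower. It held inhibitors that are transcribed when ERK is active, such as DUSP4, and also genes that are not inhibitors of the pathway, such as ETV5 and EPHA4. Of 15 tested, 5 were called higher and 1 lower. The median was 0.48 over both late times, 0.61 at 720 min and 0.17 at 1440 min. DUSP4, a phosphatase of ERK, had 84.8, 74.2, 53.8 and 66.2 CPM late and 14.1, 25.5 and 43.7 CPM early (log2 difference 1.33 ± 0.20, adjusted p = 0.000107). PHLDA1 had 374, 339.5, 403 and 388 CPM late and 139, 188 and 248 CPM early (log2 difference 0.99 ± 0.12, adjusted p = 5.21e-06). In both genes the early libraries at 45 min were among the highest of their group. EPHA4 (1.26), the transcription factor ETV5 (0.60) and the Ras inhibitor SPRED1 (0.48) were called higher, and IER3, which is also an immediate early gene, was called lower (-0.59).

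Other members of the plasminogen activator system were called beside PLAT. Of 20 matrix proteases and inhibitors tested, 4 were called higher and 2 lower. PLAU, urokinase, the other plasminogen activator, had 339, 378, 599.5 and 536 CPM late and 163, 206 and 249 CPM early (log2 difference 1.14 ± 0.14, adjusted p = 5.21e-06), with its highest values at 1440 min. PLAUR, the urokinase receptor, had 360.5, 463, 245 and 375 CPM late and 222, 238 and 287 CPM early (log2 difference 0.55 ± 0.12, adjusted p = 0.00596), and replicate 1 at 1440 min was the late library that reached into the early range. The membrane protease MMP14 was higher (0.42), and the gelatinase MMP2 was lower (-0.51).

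The called genes of the actin cytoskeleton were all lower. Of 33 actin and SRF target genes tested, 16 were called lower and none higher, and the median was -0.29 over both late times, -0.14 at 720 min and -0.42 at 1440 min. CNN2, a calponin that binds actin, had 294, 254, 258 and 229 CPM late and 411, 485 and 529.7 CPM early (log2 difference -0.88 ± 0.10, adjusted p = 2.32e-06), with no overlap. TPM1, tropomyosin 1, had 2257, 2472, 1830 and 1447 CPM late and 2881, 3128 and 3614 CPM early (log2 difference -0.67 ± 0.11, adjusted p = 0.000328). MYL9, a regulatory light chain of myosin, had 499, 516, 423 and 405 CPM late and 558, 804 and 886 CPM early (log2 difference -0.72 ± 0.12, adjusted p = 0.00025), where the early minimum was replicate 1 at 0 min. The other calponin CNN1 (-0.90), PDLIM7 (-0.73), the focal adhesion protein zyxin, ZYX (-0.62), smooth muscle actin, ACTA2 (-0.49), FHL2 (-0.42), TPM4 (-0.41), the myosin heavy chain MYH9 (-0.40), CALD1 (-0.33), TAGLN (-0.31), FLNA (-0.31), CFL1 (-0.31), and the cytoplasmic actins ACTG1 (-0.35) and ACTB (-0.29) were also called lower. ACTB had 6353, 5550, 4919 and 4828 CPM late and 6065, 6441 and 7837 CPM early, and 42% of its reads mapped to more than 1 place. The reads of GAPDH, often used beside ACTB as a control, were at 3799 to 4152 CPM late and 3462 to 5476 CPM early (adjusted p = 0.247). The actin count was 8 without replicate 2 at 1440 min, 10 without replicate 2 at 45 min, 10 without both 45 min libraries, 10 without composition scaling, and 2 with the 0 min libraries alone as early. The call of ACTB was lost without any 1 of 6 libraries.

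Most called matrix and TGF-beta genes were lower. Of 30 extracellular matrix genes tested, 9 were called lower and 1 higher, with a median of -0.28. COL1A1, of fibrillar collagen, had 16, 17.5, 22.2 and 12.9 CPM late and 25.8, 39.7 and 50.4 CPM early (log2 difference -1.17 ± 0.20, adjusted p = 0.000489). COL4A1, of basement membrane collagen, had 428, 420.1, 319 and 218 CPM late and 596, 642 and 714 CPM early (log2 difference -0.90 ± 0.13, adjusted p = 9.46e-05), and its partner COL4A2 was lower as well (-0.58). THBS1, CCDC80 (-0.46), fibronectin, FN1 (-0.42), SPARC (-0.38), COL8A1 (-0.37) and TGFBI (-0.28) completed the lower group, and the proteoglycan VCAN was higher (0.36). Of 24 TGF-beta and BMP response genes tested, 9 were called lower and 2 higher, with a median of -0.29. GREM1, a BMP antagonist and 1 of the most abundant of them, had 586, 538, 616 and 494 CPM late and 902, 1040 and 1102 CPM early (log2 difference -0.88 ± 0.09, adjusted p = 6.17e-07). INHBA, the activin A subunit, had 800, 607, 609 and 541 CPM late and 1099, 1184 and 1236 CPM early (log2 difference -0.88 ± 0.10, adjusted p = 1.95e-06). The ligand TGFB2 had 329.5, 286, 291 and 210.3 CPM late and 414, 514 and 579 CPM early (log2 difference -0.85 ± 0.12, adjusted p = 2.9e-05). In none of the 3 did the groups overlap. The BMP targets ID2 (-1.07) and ID3 (-0.67), the pseudoreceptor BAMBI (-0.79) and the receptor TGFBR1 (-0.49) were lower, while the partner receptor TGFBR2 (0.73) and LTBP1, which holds TGF-beta in the matrix (0.78), were higher. With the 0 min libraries alone as early, 2 matrix genes and 5 TGF-beta genes were called lower. Of 25 YAP/TEAD targets, 6 were called lower and 2 higher in the main comparison. ANKRD1, a nuclear YAP target, had 746, 988, 297 and 346 CPM late and 1184, 1317 and 1680 CPM early (log2 difference -1.21 ± 0.22, adjusted p = 0.000882), and was lower at 1440 than at 720 min (-1.44 ± 0.15, adjusted p = 9.72e-06).

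Most called stress-response genes were lower. Of 37 targets of the amino acid response factor ATF4, 9 were called lower and 1 higher, with a median of -0.13. SLC7A11, the cystine importer, which is also a target of NRF2, had 99.95, 89.5, 60.3 and 63.6 CPM late and 169, 178 and 206 CPM early (log2 difference -1.22 ± 0.13, adjusted p = 1.36e-06). SLC7A5, an importer of large amino acids, had 131, 144, 69.1 and 88.8 CPM late and 188, 224 and 246 CPM early (log2 difference -1.02 ± 0.15, adjusted p = 0.000117). DDIT3, the CHOP transcription factor, was almost constant in the late libraries (11.6, 12.4, 12.2 and 11.6 CPM) and at 20.7, 26.2 and 34.5 CPM early (log2 difference -1.15 ± 0.17, adjusted p = 0.000117). All 3 were without overlap. NUPR1 (-1.14), ATF3 (-2.91), PPP1R15A (-0.86), SLC3A2 (-0.84), STC2 (-0.69) and SLC38A2 (-0.40) were lower, and DDIT4, an inhibitor of mTORC1, was higher (15.5, 11.9, 50.2 and 21.5 CPM late, 6.58, 12.3 and 14.6 CPM early, log2 difference 1.15 ± 0.29, adjusted p = 0.0141). The DDIT4 call rested on replicate 1 at 1440 min, without which the adjusted p was 0.207. Of 21 NRF2 targets, 6 were called lower and none higher, with SLC7A11 followed by haem oxygenase HMOX1 (32.9, 23, 24.2 and 20.8 CPM late, 37.8, 46.5 and 58.9 CPM early, log2 difference -0.94 ± 0.15, adjusted p = 0.000273), the autophagy adaptor SQSTM1 (666, 639, 757 and 539 CPM late, 1126, 1135 and 1278 CPM early, log2 difference -0.84 ± 0.09, adjusted p = 1.75e-06), the ferritin chains FTL (-0.44) and FTH1 (-0.37) and the quinone reductase NQO1 (-0.39). Of 29 p53 targets, 6 were called lower and 1 higher. CDKN1A, the CDK inhibitor p21, had 158, 195, 213 and 187 CPM late and 244, 278 and 311 CPM early (log2 difference -0.57 ± 0.10, adjusted p = 0.000743), with no overlap. PLK3 (-0.92), GADD45A (-0.91), PLK2 (-0.72), PHLDA3 (-0.69) and TP53I3 (-0.57) were the other lower genes, and the decoy receptor TNFRSF10D was higher (0.58).

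Lysosomal and autophagy genes had few calls, and these were lower. Of 47 lysosomal genes, 5 were called lower, among them the protease CTSD (-0.62, adjusted p = 0.00268), but 1 was called without both 45 min libraries, 1 without replicate 2 at 1440 min, 2 without replicate 2 at 45 min, and 3 without any 1 of 6 further libraries. Of 26 autophagy genes, 3 were called lower, namely SQSTM1, TP53INP2 (-0.998) and ATG13 (-0.47). Of 19 genes that rise when insulin signalling is low through FOXO factors, 3 were called lower, with a median of -0.68 at 720 min and 0.11 at 1440 min. The adaptor IRS2 had 60.4, 56.2, 76.2 and 53.4 CPM late and 94.9, 111 and 119 CPM early (log2 difference -0.83 ± 0.12, adjusted p = 6.42e-05). FBXO32, the ubiquitin ligase atrogin 1, had 224, 104, 444 and 247 CPM late and 359, 412 and 458 CPM early (log2 difference -0.69 ± 0.22, adjusted p = 0.0494). Replicate 1 at 1440 min lay inside the early range of FBXO32 while the 720 min libraries were well below it, and the call was lost without any 1 of 9 libraries.

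The called immediate early genes were all lower, against early libraries that differed among themselves. Of 38 tested, 9 were called lower and none higher. On the log2 scale against the early mean, the median of the list was 0.49 and 0.37 at 45 min, below its 1.19 in the 1 library at 90 min, a time in neither group. EGR1, a zinc finger factor induced within minutes of growth factor addition, had 2.05, 8.25, 2.96 and 4.97 CPM late. The early libraries, in the order 0 min replicates 1 and 2, 10 min, 20 min, and 45 min replicates 1 and 2, had 3.4, 2.26, 11.6, 33.9, 418 and 392 CPM (log2 difference -4.97 ± 1.11, adjusted p = 0.00549). The late libraries were thus near the level of the 0 min libraries, and the early libraries stood higher the later they were taken. FOS had 0.116, 1.48, 0 and 0.921 CPM late and 0.774, 0.518, 0, 0.664, 38.9 and 34.8 CPM early in the same order (log2 difference -4.33 ± 1.29, adjusted p = 0.0366), and FOSB had 0.465, 2.74, 0.547 and 2.28 CPM late and 2.44, 3.86, 1.3, 5.03, 25.5 and 46.4 CPM early (log2 difference -3.22 ± 0.79, adjusted p = 0.011). ATF3 (-2.91), the RNA-decay factor ZFP36 (-1.35), SGK1 (-0.85), IER3 (-0.59), CYR61 (-0.44) and SRF (-0.49) were the other 6. Without both 45 min libraries 1 of the 38 was called lower and 1 higher, and against the 0 min libraries alone none was called lower. Without replicate 2 at 45 min 5 were called lower, and without replicate 2 at 1440 min 4. Against 0 min alone EGR1 had a log2 difference of 0.69 (adjusted p = 0.718). The calls of FOS and ZFP36 were lost without any 1 of 5 and of 4 libraries. MYC was not called, with 25.3 to 35.7 CPM late and 21.3 to 46.6 CPM early (adjusted p = 0.927).

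Ribosomal protein genes had more calls lower than higher. Of 80 tested, 8 were called lower, beside 4.24% of all genes, and 1, RPL22L1, higher (0.49). The median was -0.19, and 6 of the 80 were above 0, against 5782 of all 11875 genes. The list's median was -0.06 within replicates 1 and -0.23 within replicates 2. RPL29, a protein of the large subunit, had 479, 562, 456 and 488 CPM late and, early, 559, 791, 690.2, 703, 565 and 753 CPM in the order given for EGR1, so that both early replicate 1 libraries were close to the highest late library, and 44.4% of its reads mapped to more than 1 place. The count of lower ribosomal protein genes ran from 2, without replicate 1 at 1440 min, to 20, without replicate 1 at 0 min. It was 18 without replicate 1 at 45 min, and without single libraries of replicate 2 it was 3 (0 min), 4 (10 min), 3 (45 min) and 4 (1440 min). Of 62 oxidative phosphorylation genes 2 were called lower and 7 were above 0, of 29 proteasome genes 2 were called lower and 7 were above 0, and of 39 ribosome biogenesis genes 1 was called lower and 15 were above 0. Of 19 genes of uridine uptake and pyrimidine salvage, the pathway that s4U and the uridine chase enter, 1 was called, CTPS1, which makes CTP from UTP, at 106, 145, 82 and 106 CPM late and 153, 161 and 186 CPM early (log2 difference -0.60 ± 0.13, adjusted p = 0.003).

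The 2 late times were then set against the early libraries one by one, in 1 fit with 3 groups over 12506 genes. At 720 min 303 genes were called higher (2.42%) and 298 lower (2.38%), and at 1440 min 439 were called higher (3.51%) and 408 lower (3.26%). These comparisons share the early libraries. Each rests on 2 late libraries, and leaving 1 of them out took the 720 min counts to 150 higher and 172 lower (without replicate 1) or 96 and 97 (without replicate 2), and the 1440 min counts to 210 and 213 or 132 and 150. Tested against each other, 1440 over 720 min, 39 genes were called higher (0.312%) and 38 lower (0.304%), or 75 and 29 without composition scaling. Without replicate 2 at 720 min they were 12 and 8, without replicate 1 at 1440 min 15 and 20, and without replicate 2 at 45 min 29 and 25.

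The genes lower at 1440 than at 720 min included several that were at their highest at 720 min. ANGPTL4, an inhibitor of lipoprotein lipase, had 19.3, 36.4, 2.59 and 6.63 CPM in the late libraries (1440 over 720 min -2.60 ± 0.48, adjusted p = 0.00509) and 3.93 to 11.9 CPM early. PTX3, a secreted pattern-recognition protein, had 342, 487, 114 and 146 CPM late (-1.68 ± 0.23, adjusted p = 0.000294) and 91.5 to 171 CPM early. Both were above the early range at 720 min only. KRT34 (-1.82), KRTAP2-3 (-1.66), SERPINB2, an inhibitor of urokinase (-1.60), CXCL8 (-1.38, adjusted p = 0.00815) and EDN1 (-1.74) were called lower as well, EDN1 with all late libraries below every early one. Among those higher at 1440 than at 720 min, DHRS3, a retinaldehyde reductase, had 16.1, 7.69, 52.4 and 62.1 CPM late (2.26 ± 0.34, adjusted p = 0.00082) and 6.53 to 15.1 CPM early. PDGFRB, a PDGF receptor, had 7.36, 5.44, 22.6 and 18.2 CPM late (1.66 ± 0.26, adjusted p = 0.00106) and 19.8 to 22.8 CPM early, and PIK3IP1, an inhibitor of PI3 kinase, had 4.57, 2.42, 21 and 8.47 CPM late (2.07 ± 0.40, adjusted p = 0.0105) and 10.6 to 15.1 CPM early. PDGFRB and PIK3IP1 were thus low at 720 min and in or near the early range at 1440 min, while DHRS3 was near the early range at 720 min and above it at 1440 min. MXD3 (1.53), FAM20C, a kinase of secreted proteins (1.40), and NDRG4 (1.40) were also higher.

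**Figure D3:**
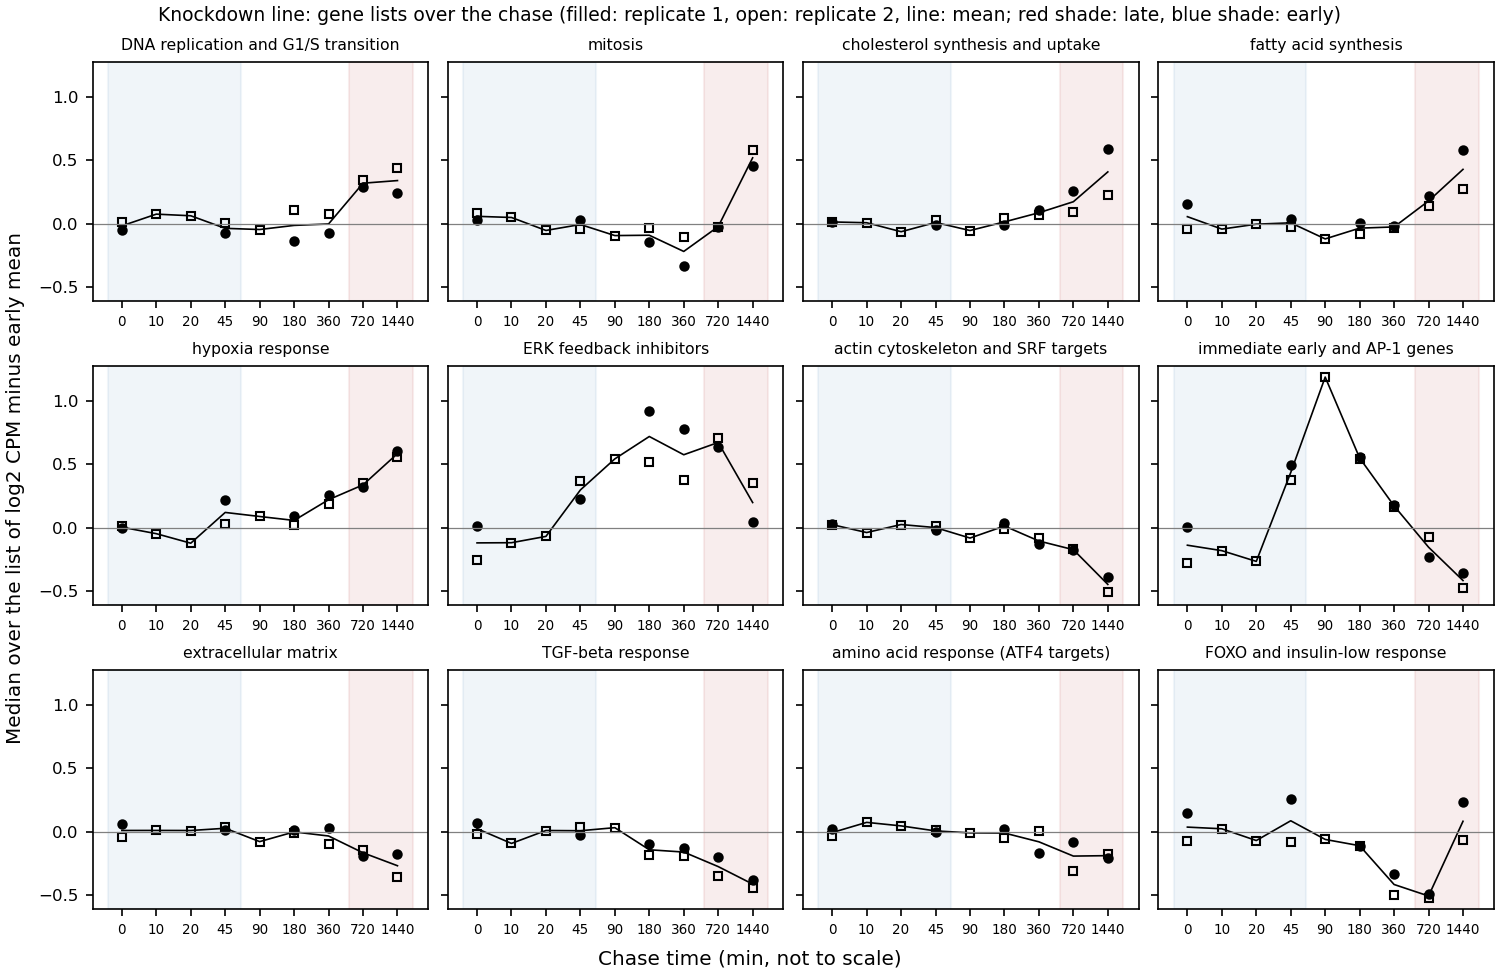
The median of each gene list over the whole chase in the knockdown line, as log2 CPM minus the mean of the 6 early libraries, by chase time (not to scale). Filled marks are replicate 1, open marks replicate 2, and the line their mean. Mitotic genes are highest at 1440 min, genes of the ERK feedback list are up from 45 min to 720 min, and immediate early genes peak at 90 min and end below the early mean.

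The times between, 90 to 360 min, entered no test and show when single genes left the early level. On the log2 scale against the early mean, PLAT was at 1.21 and 1.31 in the replicates at 180 min, at 3.21 and 3.40 at 360 min, at 3.99 and 4.49 at 720 min and at 3.88 and 4.77 at 1440 min, so most of its difference was there by 360 min. EGR1 was at -3.03 and -3.60 at 0 min, 3.87 and 3.78 at 45 min, 4.13 in the 1 library at 90 min, and -3.76 and -1.77 at 720 min. ATOH8 was lowest at 360 min, at -3.46 and -2.88. FBXO32 was at -1.36 and -1.93 at 360 min, at -0.88 and -1.97 at 720 min, and at 0.09 and -0.74 at 1440 min.

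**Figure D4:**
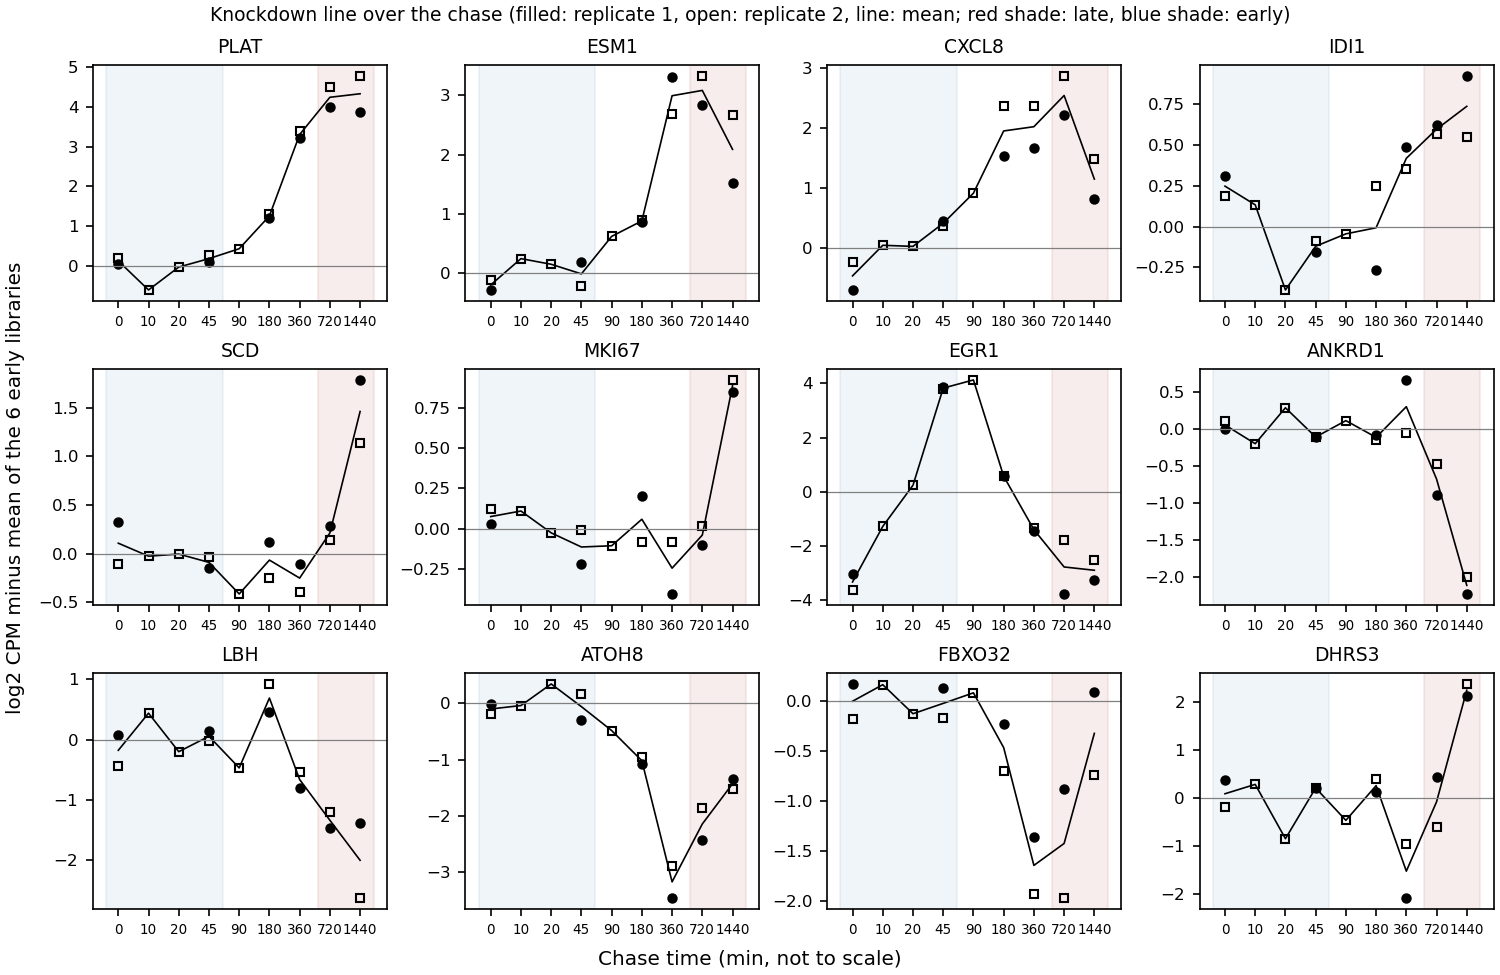
Single genes over the whole chase in the knockdown line, as log2 CPM minus the mean of the 6 early libraries, by chase time (not to scale), each panel with its own axis. Filled marks are replicate 1, open marks replicate 2, and the line their mean. PLAT climbs to 3.99 and 4.49 by 720 min, MKI67 and SCD climb at 1440 min, EGR1 peaks at 45 to 90 min, and ATOH8 and FBXO32 dip at 360 min and recover in part.

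To see whether the change was particular to the knockdown line, its late over early difference was set against that of the overexpression line, by an interaction term over 10 libraries of each line. Of 12307 genes, 1 was called (0.00813%), and 937 had an unadjusted p under 0.05. DESeq2 called 17. That gene was PLAT. In the overexpression line it had 8.05, 26.9, 32.7 and 23.1 CPM in the late libraries and 5.21 to 12.9 CPM in the early ones (1.24, adjusted p = 0.013), and the difference between the lines was 3.09 ± 0.38 (adjusted p = 0.000213). PLAT was therefore higher late in both lines and more so in the knockdown line, where the late libraries reached 366 to 673 CPM. In the overexpression line itself 234 genes were called higher (1.90%) and 115 lower (0.934%). Of the 545 genes called higher in the knockdown line, 479 were above 0 in the overexpression line, 102 were called higher there and none lower. Of the 503 called lower, 430 were below 0 there, 75 were called lower and none higher. For the other genes a difference between the lines was not shown, which does not make their responses equal. ESM1 had 2.26 in the overexpression line, beside 2.72 in the knockdown line, and TGM2 had 1.51 beside 1.50. RRM2 had 0.02 (adjusted p = 0.948) beside 0.71, INHBA 0.04 (adjusted p = 0.933) beside -0.88, and TGFA -0.39 (adjusted p = 0.52) beside 1.28, with none of the 3 called for the difference. The late INHBA libraries of the overexpression line spread widely, from 317 to 903 CPM with a median of 446 CPM. Its early libraries had 487 to 557 CPM, so the 0.04 does not show a level response.

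The label left in the RNA was then described for the groups of genes that the counts had defined. As a percentage of the T>C rate at 0 min of the same replicate, after subtracting the unlabelled library, the median gene called higher kept 8.19% and 6.92% at 720 min (replicates 1 and 2, 456 genes of at least 10 CPM), the median gene called lower kept 12.2% and 13.2% (403 genes), and the median gene not called kept 9.63% and 8.81% (6465 genes). At 1440 min the medians were 1.56% and 0.431% for genes called higher, 2.86% and 0.881% for genes called lower, and 1.69% and 0.820% for genes not called. In both replicates and at both times, the median percentage of the 0 min T>C rate was smallest in the higher genes and largest in the lower ones. New unlabelled RNA lowers this percentage and also raises the counts, so the order is not independent of the calls. At 1440 min the values are close to the unlabelled background. With a minimum of 50 CPM the 720 min medians, as means of the replicates, were 10.3% for genes called higher, 20.4% for genes called lower and 18.6% for genes not called.

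Base composition moved with the calls. Over 10481 genes with at least 300 bases in their main 3′ UTR interval, the GC content of the last 300 bases had a median of 33.0% in genes called higher, 44.3% in genes called lower and 38.0% in all. Of the 2688 genes lowest in GC (19.3 to 31.3%), 210 were called higher and 71 lower, and of the 2585 highest in GC (48.0 to 75.3%) 32 were called higher and 180 lower. The libraries themselves differed in this respect. The median log2 level of the lowest group minus that of the highest was 0.134 to 0.155 on the log2 scale in all 4 late libraries, 0.0288 and 0.118 in the early replicate 1 libraries, and -0.239 to -0.0956 in the early replicate 2 libraries. Its part in the calls was tested only by the offset that follows. With GC content as an offset in the fit of these 10481 genes, chosen after seeing the data, 416 genes were called higher and 407 lower, against 545 and 466 in a fit of the same genes without it. Of the 416 and 407, 358 and 318 were among the calls over all 11875 genes. With the offset 6 mitotic genes, 5 hypoxia genes and 11 replication genes were called higher, against 11, 8 and 13 without it in the same genes. Of genes called lower, the actin list had 10 with the offset against 14 without, the TGF-beta list 10 against 9 and the matrix list 12 against 11.

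**Figure D5:**
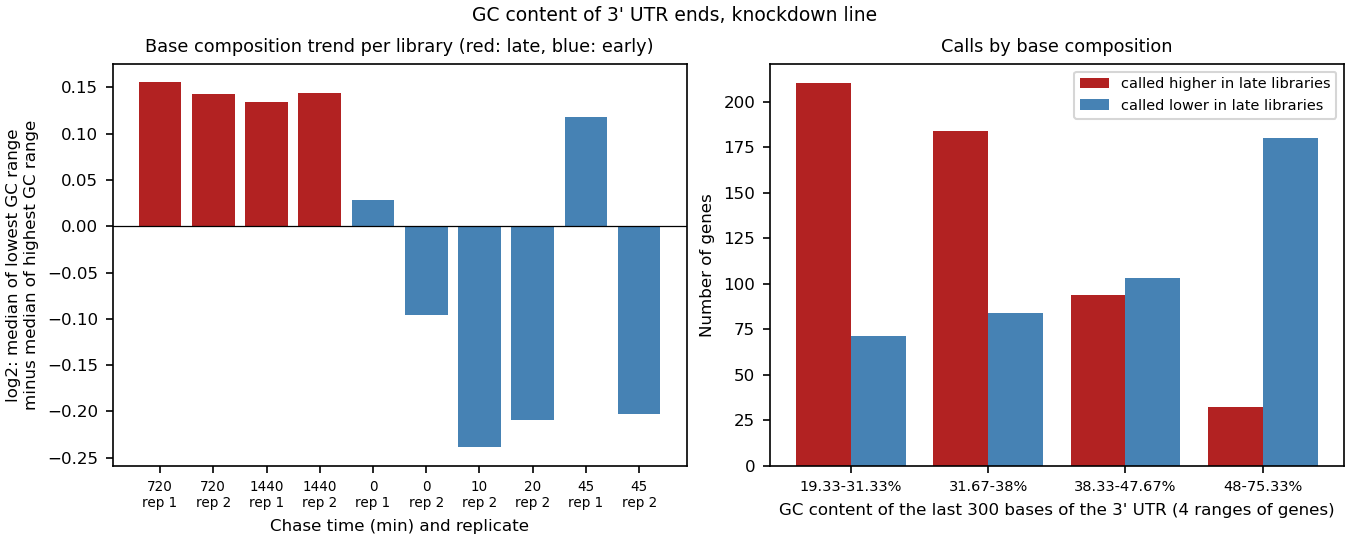
Left, the base composition trend of each of the 10 libraries, as the median log2 level of the genes lowest in GC minus that of the genes highest in GC, with late libraries in red and early ones in blue. Right, the number of genes called higher (red) and lower (blue) in each of 4 ranges of GC content of the last 300 bases of the 3′ UTR. The 4 late libraries sit at 0.134 to 0.155, and the calls turn from 210 higher and 71 lower to 32 higher and 180 lower from the lowest to the highest range.

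The ends of the 3′ UTRs also carried AU-rich letters to different extents. The pentamer ATTTA, on the transcript's strand, was in the last 300 bases of 62.7% of genes called higher, 40.6% of genes called lower and 49.3% of all, and TATTTAT, which contains it, in 19.0%, 10.5% and 11.7%. Such elements are known for binding decay factors of the ZFP36 family in mRNAs of cytokines, growth factors and immediate early genes. AT-rich windows hold more of these letters by composition alone, and the 2 measures were not separated. Among the named genes, TATTTAT was in 16 of 61 called higher and in 11 of 73 called lower. The windows printed (hg38, transcript strand 5′ to 3′, capitals at TATTTAT) show such an element in 3 genes that were higher and in 2 that were lower, EDN1 and FOS. The window of IL1B holds 3 overlapping copies, of which the first is in capitals, and each other window holds 1.
IL1B (chr2:112830000-112830026, minus strand): accgcttcccTATTTATttatttattt
VEGFA (chr6:43786287-43786313, plus strand): tgttatcattTATTTATtggtgctact
PLAU (chr10:73917409-73917435, plus strand): gtacactgaaTATTTATatttcactat
EDN1 (chr6:12297010-12297036, plus strand): tttttatagaTATTTATattcaaacaa
FOS (chr14:75282061-75282087, plus strand): gtttttaattTATTTATtaagatggat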

How the data were processed

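QuantSeq 3′ end libraries from 75 ng of RNA were sequenced as 100-nt reads, and the authors mapped them to hg38 and counted them in annotated 3′ UTR intervals with SLAMdunk (version 0.4.3). The deposited tables hold, per interval, read counts, T>C conversion counts and T coverage, and CPM values were computed anew from the deposited counts. Counts were summed by gene name over 71668 intervals, leaving out 1168 that carried several names, which gave 19041 genes. Of the 34 libraries, 27 were read, and 7 overexpression libraries at other times or without label were not used here. Genes were filtered with filterByExpr, scaled by TMM and tested with edgeR 4.0.16 (quasi-likelihood test, R 4.3.3), and p-values were adjusted over all genes tested. The value after ± is the standard error of the log2 difference, from the test's F statistic. DESeq2 1.42.0 was an alternative. The labels do not say whether replicate numbers are separate cultures, so p-values measure the spread between these libraries, which may be technical. The script was tested on simulated data.

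The libraries and gene lists were chosen with earlier results of these data known. The named genes were the 15 highest and 15 lowest called genes with at least 10 CPM, at most 10% multimapped reads, no overlap and the same sign in both replicates, up to 5 called members of each of 39 lists with at least 5 CPM, 12 fixed genes, up to 8 from the line comparison, and 6 each way from 1440 over 720 min, 157 in all. Other members were named as called, and 3 genes are not reported here. The T>C rate of a gene was its conversions over its T coverage. Promoters were RefSeq windows (GRCh38.p14). Alternatives were another normalization, filter, tool, early or late time, multimapping limit and replicate block, and leaving out each library. The fits without both 45 min libraries and with a GC offset were added after seeing the data.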

Additional observations from a re-analysis of the deposited data

Results flagged for a closer look

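In 9 of 314 groups of libraries tested over the named genes, 1 library lay far from the others of its group by Dixon's criterion, and chance alone flags about 1 in 20 groups. Among late libraries these were replicate 2 at 1440 min for CNN1 (2.95 CPM, low), replicate 1 at 1440 min for IDI1 (63.2 CPM, high) and the same library for RPS15 (932.5 CPM, low). Among early libraries they were replicate 1 at 0 min for ACTB (7837 CPM, high) and for SCD (86.5 CPM, high), replicate 2 at 10 min for NFKBIA (208 CPM, high), replicate 2 at 20 min for ELOVL6 (71.0 CPM, high) and for ID2 (14.7 CPM, high), and replicate 1 at 45 min for PDK1 (21.6 CPM, high). The PLAT difference between the lines, 3.09 on the log2 scale by the interaction test, was flagged because the late over early effect of the knockdown line differed from that of the overexpression line.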

How the results depend on the processing

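The counts of called genes differed between settings. DESeq2 called 750 higher and 708 lower. With 0 and 45 min against 720 and 1440 min, 302 genes were called higher and 279 lower, with 0 min alone as early 79 and 81, with 720 min alone as late 295 and 307, with counts summed per replicate number and phase 210 and 190, and without both 45 min libraries 353 higher. Fewer libraries, or 4 sums of libraries, entered each of these fits. Leaving out 1 library at a time gave 346 to 555 higher and 310 to 549 lower. For 720 min over early the ranges were 96 to 389 higher and 97 to 352 lower, for 1440 min over early 132 to 496 and 150 to 486, for 1440 over 720 min 12 to 49 and 8 to 52, and for the line difference 1 to 7 genes, with 7 without overexpression replicate 1 at 720 min. Without composition scaling 75 genes were higher at 1440 than at 720 min, and DESeq2 called 17 genes for the line difference. With a minimum of 50 CPM the label left had medians of 10.3% (called higher), 20.4% (called lower) and 18.6% (not called) at 720 min, and of 3.39% (called lower) and 2.406% (not called) at 1440 min.

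Over the genes tested, replicate numbers showed almost no pairing of the libraries, since differences between replicates 1 and 2 correlated at -0.023 to 0.053 between times. The base composition trend did differ by replicate number among early libraries (0.0288 and 0.118 in replicate 1, -0.239 to -0.0956 in replicate 2). With a replicate block, 572 genes were called higher and 501 lower, of which 510 and 454 were called without it, and 1440 over 720 min gave 96 higher and 100 lower. The sign of 5 named genes that were called in the main comparison turned. EGR1 was 0.69 with 0 min alone as early, FOS 0.36 without both 45 min libraries, MKI67 -0.0365 and DHRS3 -0.0353 with 720 min alone as late, and PTX3 -0.0503 with 1440 min alone as late. None of these 5 values passed the test. Of 145 named genes that were called, 41 lost the call without at least 1 library and 23 without any 1 of 4 or more. Of the other settings of named genes, 3353 kept sign and side of the threshold, 504 lost the call, 24 gained it and 17 turned sign. Those 17 were in genes that the main comparison did not call.

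At 26354507 to 44480703 reads in 3′ UTRs per library, depth limits mainly genes of a few CPM, such as FOS outside 45 min. Label left at 1440 min lies close to the unlabelled background. The 2 libraries at each late time limit the comparison of 1440 with 720 min. The cause of the dependence on the early times was not tested.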

Other observations

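Several smaller gene groups, described by the same counts and test, had few called members. Of 20 circadian clock genes 2 were called higher in the late libraries, NPAS2 (10.3, 18, 19.6 and 10 CPM late, 3.12 to 11.1 CPM early, log2 difference 1.19 ± 0.32, adjusted p = 0.0226) and ARNTL2, a partner of CLOCK (60.3, 61.7, 55.9 and 43.1 CPM late, 35.8 to 42.9 CPM early, log2 difference 0.53 ± 0.12, adjusted p = 0.00819), while the clock repressor NR1D1 had 1.12 to 5.45 CPM late and 2.1 to 4.42 CPM early (adjusted p = 0.829). The NPAS2 call was lost without any 1 of 4 libraries. Of 19 heat shock genes the small heat shock genes HSPB8 (-0.99), CRYAB (-0.84) and HSPB1 (-0.46) were called lower, and the mitochondrial chaperone HSPD1 (0.40) and the HSP90 partner CHORDC1 (0.56) higher. Of 26 NF-kB targets and cytokines, IL1B and CXCL8 were called higher and BIRC3 (-1.12), IL32 (-0.77) and the NF-kB inhibitor NFKBIA (-0.50) lower. Of 10 metallothionein and zinc transport genes 1 was called, MT2A, the metal-binding protein gene that was among the most abundant of all, at 18020, 18060, 17960 and 18080 CPM late and 12630 to 13830 CPM early (log2 difference 0.43 ± 0.06, adjusted p = 4e-05).

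Of 385 zinc finger genes with ZNF symbols 3 were called higher and 6 lower, and without 1 library the lower count ran from 2 to 7. Of 34 interferon response genes TRIM22 was called lower (-0.85), of 23 endoplasmic reticulum stress genes MANF was called higher (0.43), of 5 IGF-binding protein genes IGFBP3 was called higher (0.51), and of 9 replication-dependent histone genes HIST1H4H was called lower (-1.10). The HIST1H4H call was lost without any 1 of 7 libraries, with the GC offset and without composition scaling, and 7 of the 9 histone genes were above 0, with a median of 0.22. The calls of IL32 and MANF were lost without any 1 of 7 and of 6 libraries. No gene was called among 6 LXR targets, 8 targets of the glucose sensor MondoA, 6 pigment epithelial and epithelial markers, 2 neural markers and 1 endothelial marker tested, and none of 8 blood cell markers was abundant enough to test. TXNIP, a glucose-responsive arrestin, had 50.9, 31, 86 and 66.1 CPM late and 27.9 to 57.8 CPM early (adjusted p = 0.103), with both 1440 min libraries above every other.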
